A study of Oryza sativa with 7 samples.

Results

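The prolamin and globulin storage proteins of rice are described here through 8 loci, chosen by locus ID from the 37858 loci of the tables: 6 prolamin loci, the locus of the 26 kDa alpha-globulin and the locus of a vicilin-like globulin. Their transcripts were measured by RNA sequencing in Oryza sativa cultivar Ilmi, in 7 libraries of 4 tissues. Seed was collected at the ripening stage, 20 to 30 days after pollination (2 libraries, with 21 days in their names), and is set against leaf at 14 days (2 libraries), root at 14 days (1 library) and flowers of young panicles of 0.5 to 1.5 cm, taken before pollination (2 libraries). No treatment, genotype or batch is given. The labels leave unsaid whether libraries of 1 tissue stem from different plants, and the p-values therefore reflect library-to-library spread that may be only technical. The tables hold IDs only, and 0 of the 8 IDs were matched in the RefSeq gene table, so the protein class of each locus comes from the list of members and was not checked against a sequence. By its title, the series asks about alternative splicing in the 4 tissues.

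Cereal grains store nitrogen in a few abundant proteins that accumulate in the endosperm during grain filling and feed the seedling after germination. Prolamins are small, alcohol-soluble proteins made on the rough endoplasmic reticulum, where they collect in protein bodies that bud inside it. Globulins are soluble in salt solution and, in rice, the alpha-globulin travels with the glutelins to protein storage vacuoles, while vicilin-like globulins are best known from legume seeds and cereal embryos. Prolamin genes often lie in tandem clusters of closely related copies without introns, and reads of near-identical copies can be split between loci or lost.

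Counts over exon bins, which are stretches of a locus's annotated exons, totalled 11989260 in seed 2 and 17866682 in seed 1, and between 16139784 and 49312943 in the other 5 libraries. A read can count in several bins, so these totals can exceed the number of reads. Levels are given as CPM, counts scaled to the TMM-adjusted library size. They carry no correction for length, so they are compared mainly between tissues. Where loci are ranked or set side by side below, their counts can also differ through length and number of bins. Seed is a mixture of endosperm, embryo and seed coat, and in such bulk samples fewer cells of a type and less RNA per cell cannot be told apart.

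All 8 loci had counts in both seed libraries and at most 23 counts in any other library. The 6 prolamin loci together took 4.37% of the counts of seed 2 and 2.02% of those of seed 1, against 0.000224% or less in each of the other 5 libraries. The globulin loci took 0.685% of the counts of seed 2 and 1.09% of those of seed 1, against 3.1e-05% or less elsewhere. Of the 10 loci with the most counts, 3 were among the 8 in either seed library, and of the 20 with the most counts 6 were in seed 2 and 4 in seed 1. The libraries labelled seed were thus the ones with storage protein transcripts, and no annotated markers were at hand to check the other tissues.

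Among the prolamins, the pair of loci with adjacent IDs on chromosome 7 was high in both seed libraries. Os07g0206500 had 14777 CPM in seed 2 and 6978 CPM in seed 1, against no count in either leaf library, 14 counts in root, 16 in panicle 1 and 2 in panicle 2. Os07g0206400 had 12596 CPM in seed 2 and 3987 CPM in seed 1, against 11 counts in root, 23 and 4 in panicle 1 and panicle 2, 2 in leaf 2 and none in leaf 1. For both loci the seed libraries lay far above every other library, and both were lowest in leaf.

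On chromosome 12, Os12g0269600 had 11908 CPM in seed 2 and 7134 CPM in seed 1, against 8 counts in root, 3 in panicle 2 and none in panicle 1 or in leaf. Os12g0269200 was the prolamin locus with the widest gap between the seed libraries among those over 100 CPM, with 70719 counts (7463 CPM) in seed 2 and 10069 counts (617 CPM) in seed 1. Outside seed it had 1 count in leaf 2, 1 in root and none in leaf 1 or in panicle. For both loci seed did not overlap with the other 5 libraries, among which leaf and panicle overlapped.

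Os03g0766100, the listed prolamin on chromosome 3, had 8577 CPM in seed 2 and 3363 CPM in seed 1. It was the prolamin locus with counts in every library outside seed: 13 in root, 10 and 4 in panicle 2 and panicle 1, and 18 and 5 in leaf 2 and leaf 1. Even so, its seed libraries lay far above the rest. Os05g0329100 on chromosome 5 had few counts in seed, with 70 counts (7.39 CPM) in seed 2 and 24 counts (1.47 CPM) in seed 1. It had no count in leaf, root or panicle, which allows up to 3 counts per tissue, which is 0.0535 CPM for leaf, 0.139 CPM for root and 0.0566 CPM for panicle.

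The 2 globulin loci were unlike each other. Os05g0499100, the alpha-globulin locus, had 8659 CPM in seed 2 and 11917 CPM in seed 1, which makes it the one locus of the 8 that was lower in seed 2. Its counts elsewhere were 3 in root, 5 and 1 in panicle 2 and panicle 1, and 2 and 1 in leaf 2 and leaf 1. Seed did not overlap with these 5 libraries, while leaf and root lay within the range of panicle in CPM. Os03g0663800, the vicilin-like locus, had 114 counts (12.0 CPM) in seed 2, 2 counts (0.123 CPM) in seed 1 and none in the 5 other libraries.

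**Figure D1:**
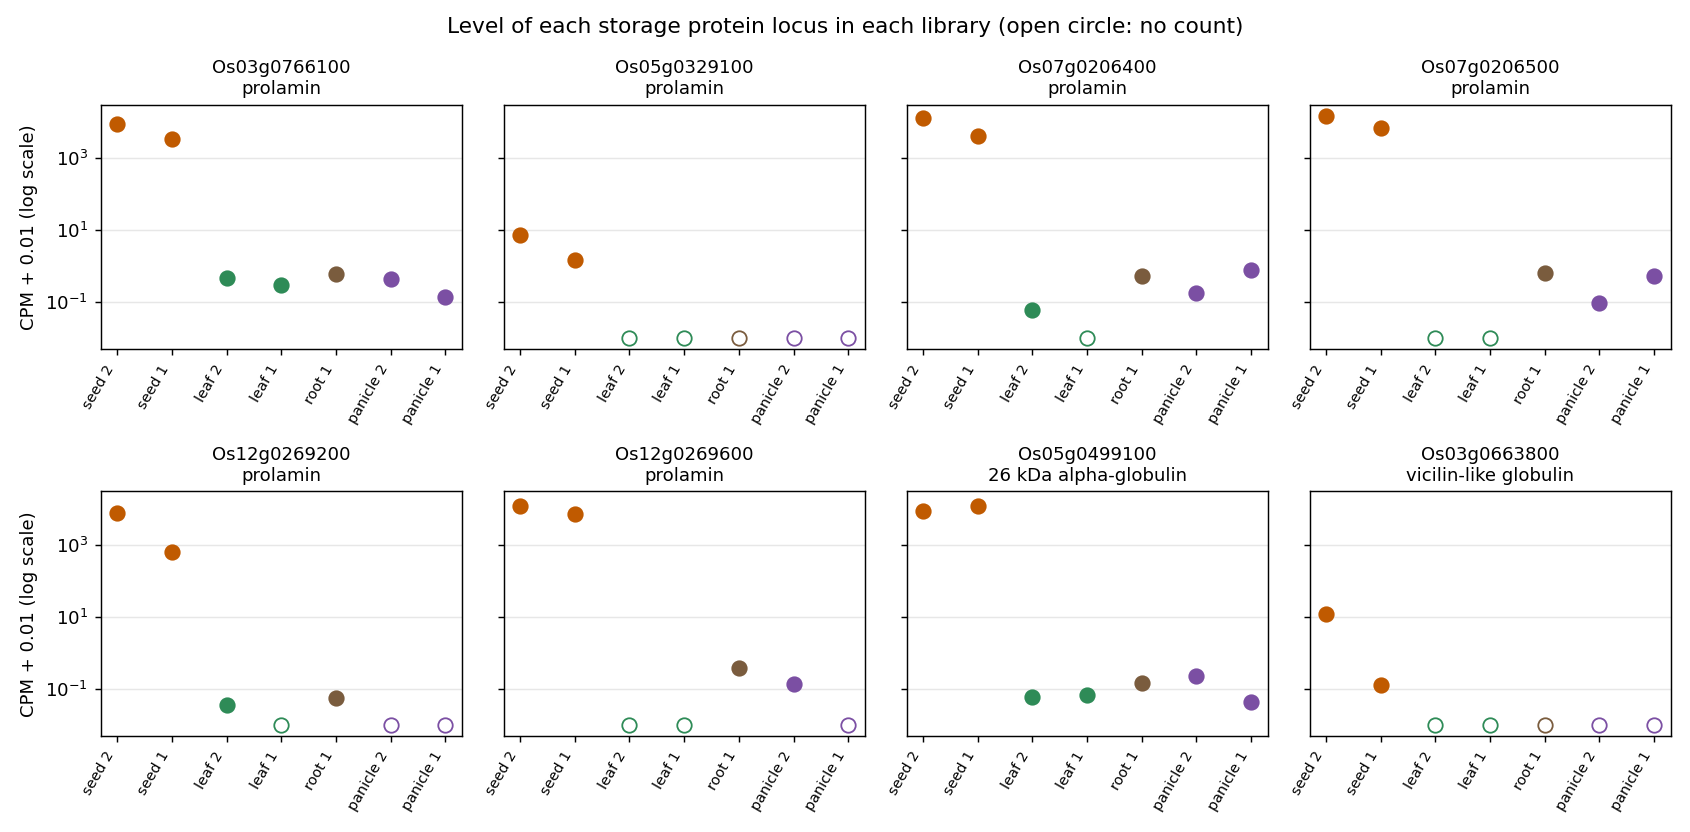
Level of each of the 8 loci in each library, as CPM + 0.01 on a log axis. Points are single libraries coloured by tissue, and open circles mark libraries with no count. In all 8 panels both seed libraries lie above the other 5, which stay under 1 CPM, and 6 panels reach 617 CPM or more in both seed libraries. For Os03g0663800 seed 1 has 2 counts (0.123 CPM), under the 0.139 CPM that no count in root allows.

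Set against leaf, 7 of the 8 loci were higher in seed (edgeR's quasi-likelihood test, adjusted p under 0.05 over 26784 loci and 2-fold or more), where 11.2% of all tested loci were. Against root 6 of 8 passed (9.50% of tested loci) and against panicle 7 of 8 (17.1%). The median log2 ratio of the 8 loci was 17.50 over leaf, 14.01 over root and 14.72 over panicle, with 4, 2 and 3 loci of no count set at the bound of 3 counts, while the median fitted log2 fold change of all tested loci was -0.08, 0.09 and 0.10. These loci were known as seed storage proteins, and seed counts alone were enough for all 8 to pass the low-count filter. The counts therefore describe them and do not support the list. Both seed libraries lay above the other 5 in 8 of 8 loci, and in 12.5% of all tested loci. For Os03g0663800 this rests on 2 counts in seed 1 (0.123 CPM), under the 0.139 CPM that no count in root allows.

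The prolamins that passed in all 3 comparisons were Os03g0766100, Os07g0206400, Os07g0206500, Os12g0269200 and Os12g0269600. Ratios divide the mean seed level by the pooled level of the other tissue. In seed, Os07g0206500 was at least 203155-fold higher than in leaf by this measure (adjusted p = 0.00109, edgeR). The bound for Os12g0269600 was 177819-fold (adjusted p = 0.000961, edgeR). Both set 3 counts over the 2 leaf libraries, and without leaf 2, the deepest library, they were 63584-fold and 55654-fold by construction. Without seed 2 the bound of Os07g0206500 was 130331-fold.

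For Os03g0766100 the ratio of seed to leaf was 14543, with a 95% counting interval of 9692 to 22942 that comes from the leaf counts alone (edgeR, adjusted p = 0.000927), and 8192 without seed 2. Os07g0206400 had a ratio of 232284 (interval 64303 to 1918040) over 2 leaf counts (edgeR, adjusted p = 0.000941). It was 352884 without seed 1 and 111683 without seed 2, and the bound without leaf 2, where both leaf counts lie, was 48467. Os12g0269200 had a ratio of 226360 (interval 40627 to 8940750) over 1 leaf count (edgeR, adjusted p = 0.00341), which was 418164 without seed 1 and 34556 without seed 2. Without leaf 2, which holds that count, its bound was 23616-fold and it was no longer called against leaf (edgeR, adjusted p = 0.0505).

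Over root, the ratios of these 5 prolamins ran from 9922 for Os03g0766100 (edgeR, adjusted p = 0.00285) to 87287 for Os12g0269200 (edgeR, adjusted p = 0.0144), the last over 1 root count with an interval of 15666 to 3447660. Without seed 2 these ratios were 5589 and 13325, and the one of Os12g0269200 was 161249 without seed 1. With a single root library the test takes the spread of root from the other tissues. Over panicle, Os07g0206400 had the lowest of their ratios, 16282 (edgeR, adjusted p = 0.00124), and it was 24736 and 7829 without seed 1 and seed 2, and 48060 and 10756 without panicle 1 and panicle 2. Os12g0269600 had 168272 over 3 panicle counts, with an interval of 57580 to 815968 (edgeR, adjusted p = 0.00115), and 73583 without panicle 1. Without panicle 2, where all 3 counts lie, its bound was 94690-fold. Os12g0269200 had no panicle count and was at least 71402-fold higher in seed (edgeR, adjusted p = 0.00376), at least 131904-fold without seed 1 and 10900-fold without seed 2. By construction, this bound was 31223-fold without panicle 1 and 40179-fold without panicle 2.

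The alpha-globulin locus Os05g0499100 was also higher in seed in all 3 comparisons. Its ratio was 192149 over leaf (interval 65750 to 931751, 3 leaf counts, edgeR adjusted p = 0.000927). It was 74095 over root (interval 25354 to 359294, 3 root counts, edgeR adjusted p = 0.00256) and 90917 over panicle (interval 41770 to 247741, 6 panicle counts, edgeR adjusted p = 0.000881). The ratio over panicle was 47708 without panicle 1 and 306961 without panicle 2.

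Of the loci with few seed counts, 1 passed in some comparisons and 1 in none. Os05g0329100 was at least 82.7-fold higher in seed than in leaf (edgeR, adjusted p = 0.019) and at least 78.3-fold higher than in panicle (edgeR, adjusted p = 0.0196). Against root, where 3 counts give a bound of 31.9-fold, it did not pass (edgeR, adjusted p = 0.0605). It did pass against root with DESeq2 (adjusted p = 0.024), and with edgeR with no low-count filter (adjusted p = 0.028), by the largest bin (0.0423), without panicle 2 (0.0496) and without seed 1 (0.0186). Its call against leaf was lost without leaf 1 or leaf 2 (edgeR, adjusted p = 0.076 and 0.103), and its call against panicle without panicle 1 or panicle 2 (0.0566 and 0.0523). Its bound over leaf was 27.5-fold without seed 2, 138-fold without seed 1 and 25.9-fold without leaf 2. Over root the same omissions gave 10.6-fold (no seed 2) and 53.2-fold (no seed 1). Over panicle they gave 25.98-fold (no seed 2) and 131-fold (no seed 1), and the bound was 34.2-fold without panicle 1 and 44.0-fold without panicle 2. The vicilin-like locus Os03g0663800 was not called against leaf, root or panicle (edgeR, adjusted p = 0.0682, 0.172 and 0.0711). All but 2 of its counts came from seed 2, and without seed 1 it was called in all 3 comparisons (edgeR, adjusted p = 0.00298, 0.0105 and 0.00303). That omission removes the seed library with 2 counts and leaves seed as 1 library, assumed to vary like leaf and panicle, so its calls say nothing of the spread within seed. With no low-count filter it was called against leaf and panicle (edgeR, adjusted p = 0.0225 and 0.0231) but not against root (0.0959).

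Outside seed the 8 loci were near the lower limit of detection. Root held 50 of their counts, panicle 1 44, panicle 2 24, leaf 2 23 and leaf 1 6. In scaled terms the sums were 0.598 CPM (leaf 2), 0.342 CPM (leaf 1), 2.31 CPM (root), 1.47 CPM (panicle 1) and 1.04 CPM (panicle 2). Leaf thus had the lowest summed level although leaf 2 was the deepest library, and root the highest, from 1 library. The sums were not tested.

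Between these tissues 0 of the 8 loci passed (edgeR). Os05g0329100 and Os03g0663800 had no count in any of these tissues, so 2 of the 8 could not be called. In panicle over leaf, where 30.0% of all tested loci passed, 2 of the 8 had an unadjusted p under 0.05 (43.5% of tested loci). In root over leaf (18.1% of tested loci called) 2 of the 8 had an unadjusted p under 0.05 (31.6% of tested loci). In panicle over root (28.2% called) 0 of the 8 did (42.5% of tested loci). DESeq2 called 2, 2 and 0 of the 8 in the same comparisons, where it called 35.1%, 23.7% and 34.7% of all tested loci. These member counts were near or below the background only with all 8 as the base, which includes the 2 loci that could not be called. The calls by DESeq2 were the neighbours on chromosome 7. Os07g0206400 averaged 0.472 ± 0.423 CPM in panicle and 0.0260 ± 0.0367 CPM in leaf (SD, n = 2 each), with 0.509 CPM in the 1 root library (DESeq2, adjusted p = 0.0117 for panicle over leaf and 0.0283 for root over leaf). Os07g0206500 averaged 0.311 ± 0.318 CPM in panicle (SD, n = 2) with 0.648 CPM in root and no count in leaf (DESeq2, adjusted p = 0.00262 and 0.000758). With edgeR their adjusted p was 0.0875 and 0.0665 for panicle over leaf, and 0.165 and 0.0637 for root over leaf, so these differences depended on the tool. They also depended on seed libraries that are in neither group: without seed 1 or without seed 2, edgeR called 2 of the 8 in panicle over leaf and 1 in root over leaf. In these fits it called 39.1% (without seed 1) and 39.0% (without seed 2) of all tested loci in panicle over leaf, and 27.7% in root over leaf in either. The members' counts were below these shares with all 8 as the base, again including the 2 loci that could not be called.

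Most of the 8 loci differed in level between the 2 seed libraries. With seed 2 set over seed 1, 6 of the 8 loci were 2-fold or more higher in seed 2 and 0 were 2-fold or more lower, while among all tested loci 18.4% were higher and 16.6% lower by as much. Among the 1927 loci with a mean of 100 CPM or more in seed, where counting error is small, these shares were 10.2% and 12.8%. Os05g0329100 and Os03g0663800, with means of 4.43 and 6.08 CPM in seed, lie outside that set. Of the listed loci within it, Os03g0766100, Os07g0206400, Os07g0206500 and Os12g0269200 were 2-fold or more higher in seed 2. Os12g0269600 and Os05g0499100 were not. The median log2 ratio of seed 2 over seed 1 was 1.51 for the 8 loci, 0.00 for all tested loci and -0.21 for the loci of 100 CPM or more. The median absolute log2 ratio was 1.51, 0.78 and 0.55 in the same order. These are 2 libraries of 1 tissue, so no test was made, and the labels give a span of 20 to 30 days for both.

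The listed prolamins were all higher in seed 2, but by unequal folds. Os12g0269200 was 12.1-fold higher in seed 2, Os07g0206400 3.16-fold, Os03g0766100 2.55-fold and Os07g0206500 2.12-fold. Os12g0269600 was 1.67-fold higher, below 2-fold. With total counts in place of TMM scaling the log2 ratio of Os07g0206500 was 0.87, also below 2-fold, while by the largest bin that of Os12g0269600 was 1.08. No other of the 8 loci crossed 2-fold or turned its direction under the scalings run. At low counts, Os05g0329100 had a ratio of 5.03 (95% interval 3.12 to 8.36, exact binomial) and the vicilin-like locus Os03g0663800 a ratio of 98.2 (26.6 to 821), both covering counting error only.

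The alpha-globulin locus went the other way, with a ratio of seed 2 over seed 1 of 0.727 under TMM scaling, and its log2 ratio was below 0 under all 4 scalings and with the largest bin (-0.67 to -0.40). Within a library the balance of the classes does not depend on scaling. The 6 prolamins had 6.39 counts per count of alpha-globulin in seed 2 and 1.85 in seed 1. Of the counts of the 8 loci, the alpha-globulin locus held 13.5% in seed 2 and 35.1% in seed 1, and Os12g0269200 held 11.7% in seed 2 and 1.81% in seed 1.

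**Figure D2:**
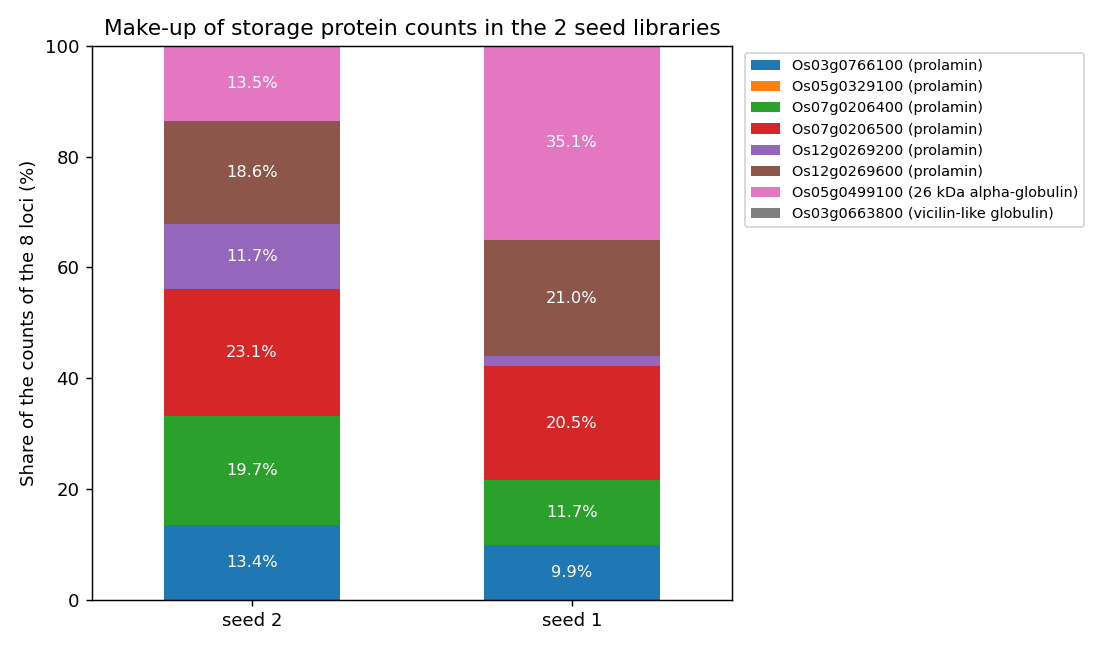
Share of the summed counts of the 8 loci held by each locus in seed 2 and seed 1, in percent, 1 bar per library. The alpha-globulin share is 13.5% in seed 2 and 35.1% in seed 1, and that of Os12g0269200 is 11.7% in seed 2 and 1.81% in seed 1. Os05g0329100 and Os03g0663800 are too few to be seen.

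Within the prolamin counts alone, Os03g0766100 held nearly the same share in both libraries, 15.5% in seed 2 and 15.2% in seed 1. Os07g0206400 held 22.8% in seed 2 and 18.1% in seed 1, and its neighbour Os07g0206500 held 26.7% and 31.6% in the same libraries. Os12g0269600 held 21.5% in seed 2 and 32.3% in seed 1, and Os12g0269200 held 13.5% and 2.79%. The widest differences in share were thus those of the 2 loci on chromosome 12, which went in opposite directions.

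**Figure D3:**
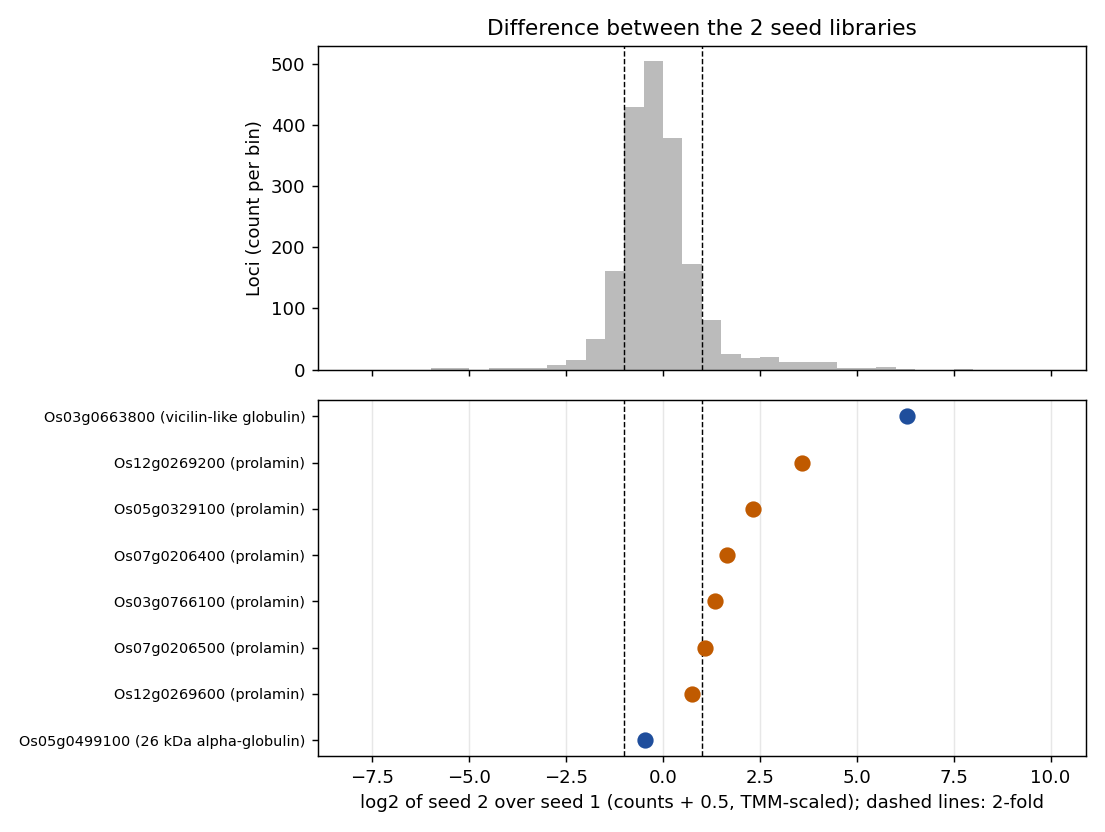
Upper panel, number of loci by log2 ratio of seed 2 over seed 1 for the 1927 loci with 100 CPM or more in seed. Lower panel, the same ratio for the 8 loci, prolamins in orange and globulins in blue, with dashed lines at 2-fold. From the alpha-globulin at -0.46 to the vicilin-like locus at 6.30, 6 of the 8 points lie right of the upper 2-fold line. Os05g0329100 and Os03g0663800 are under 100 CPM in seed and so are not among the loci of the upper panel.

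Exon bins gave little to compare between tissues. Os03g0766100, Os07g0206400, Os07g0206500, Os12g0269200 and Os05g0499100 have 1 bin each. Os05g0329100 has 3 bins, and all of its seed counts, 70 in seed 2 and 24 in seed 1, fell in bin 2. The vicilin-like locus has 2 bins, and all of its counts fell in bin 1. Os12g0269600, with 2 bins, alone entered the usage test of 18512 loci. It was not called in seed over leaf, root or panicle by edgeR's diffSpliceDGE (Simes), where 0.157%, 0.0432% and 0.113% of loci were called. Its unadjusted edgeR Simes p was 0.776, 0.412 and 0.773 and its adjusted p was 1 in each, and limma's diffSplice after voom did not call it either. The locus had 0 counts in leaf, 8 in root and 3 in panicle, so a difference in usage was not detectable at this depth.

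Between the seed libraries the bins of Os12g0269600 did differ. Bin 1 held 11.5% of the locus's counts in seed 2 (95% Wilson interval 11.3% to 11.7%) and 32.8% in seed 1 (32.5% to 33.1%). In level, bin 1 had 1372 CPM in seed 2 and 2340 CPM in seed 1, a ratio of 0.587, while bin 2 had 10536 CPM in seed 2 and 4794 CPM in seed 1, a ratio of 2.20. The locus total, 1.67-fold higher in seed 2, therefore sums a lower bin and a higher one. The other listed locus of this ID block, Os12g0269200, was higher in seed 2 as well. So was the next ID, Os12g0269700, with 1145 CPM in seed 2 and 42.3 CPM in seed 1. Whether reads of a similar copy moved between these loci was not tested. The intervals cover counting error only, and the tables give no separate counts of junction reads.

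Rice locus IDs are numbered along each chromosome, so the nearest IDs are neighbouring loci. The 5 nearest non-member loci on either side of each member came to 60 loci, of which 44 passed the filter. Of these, 5 were higher in seed than in each of leaf, root and panicle (edgeR), or 11.4%, against 2.99% of all tested loci. No such locus lay beside the chromosome 7 pair, the chromosome 12 pair or the alpha-globulin locus. The 5 were Os03g0663750 (beside Os03g0663800), Os03g0766200 and Os03g0766350 (beside Os03g0766100), and Os05g0328800 and Os05g0329200 (beside Os05g0329100). The files and the reference table give none of them a name. The count was 3 without leaf 1 or without leaf 2, 12 without seed 1 and 8 without seed 2, where 1.54%, 1.45%, 4.45% and 3.90% of all tested loci passed.

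The neighbourhood of Os05g0329100 stood out after its values were seen. All 10 of its neighbours had counts in 1 or both seed libraries and at most 1 count over the other 5 libraries, a pattern found in 3.04% of the 37858 loci. Together they had 12483 counts in seed 2 and 3496 in seed 1, against 2 in the other 5 libraries, so the listed locus held few of the counts of its block. The pattern needs only 1 seed count, and several neighbours had few. Os05g0329001 had 1 count in seed 2 and 0 in seed 1, Os05g0328901 had 6 and 7, and Os05g0329400 had 17 and 0. Of the 10, 8 passed the low-count filter and 2 were called higher in seed in all 3 comparisons. The block was not uniform between the seed libraries: Os05g0329700 had 6646 (seed 2) and 308 (seed 1) counts, while Os05g0329200 had 55 (seed 2) and 1470 (seed 1). The first of these, singled out after its values were seen, had no count elsewhere but missed the threshold against root (edgeR, adjusted p = 0.0676).

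A similar contrast lay beside the vicilin-like locus. Os03g0663750, the ID just before Os03g0663800, had 53137 counts (5608 CPM) in seed 2 and 15892 counts (973 CPM) in seed 1, against 4 counts in panicle 2 and none in the other 4 libraries. It was higher in seed than in leaf, root and panicle (edgeR, adjusted p = 0.00236, 0.00972 and 0.00306). The 114 and 2 counts of the listed locus thus stand beside far more at its neighbour, and whether the annotations overlap or share reads was not tested. Beside the chromosome 12 pair, Os12g0269700, also singled out after its values were seen, had 10849 counts in seed 2, 691 in seed 1 and no count elsewhere. It passed against leaf and panicle but not against root (edgeR, adjusted p = 0.0164, 0.0169 and 0.053).

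**Figure D4:**
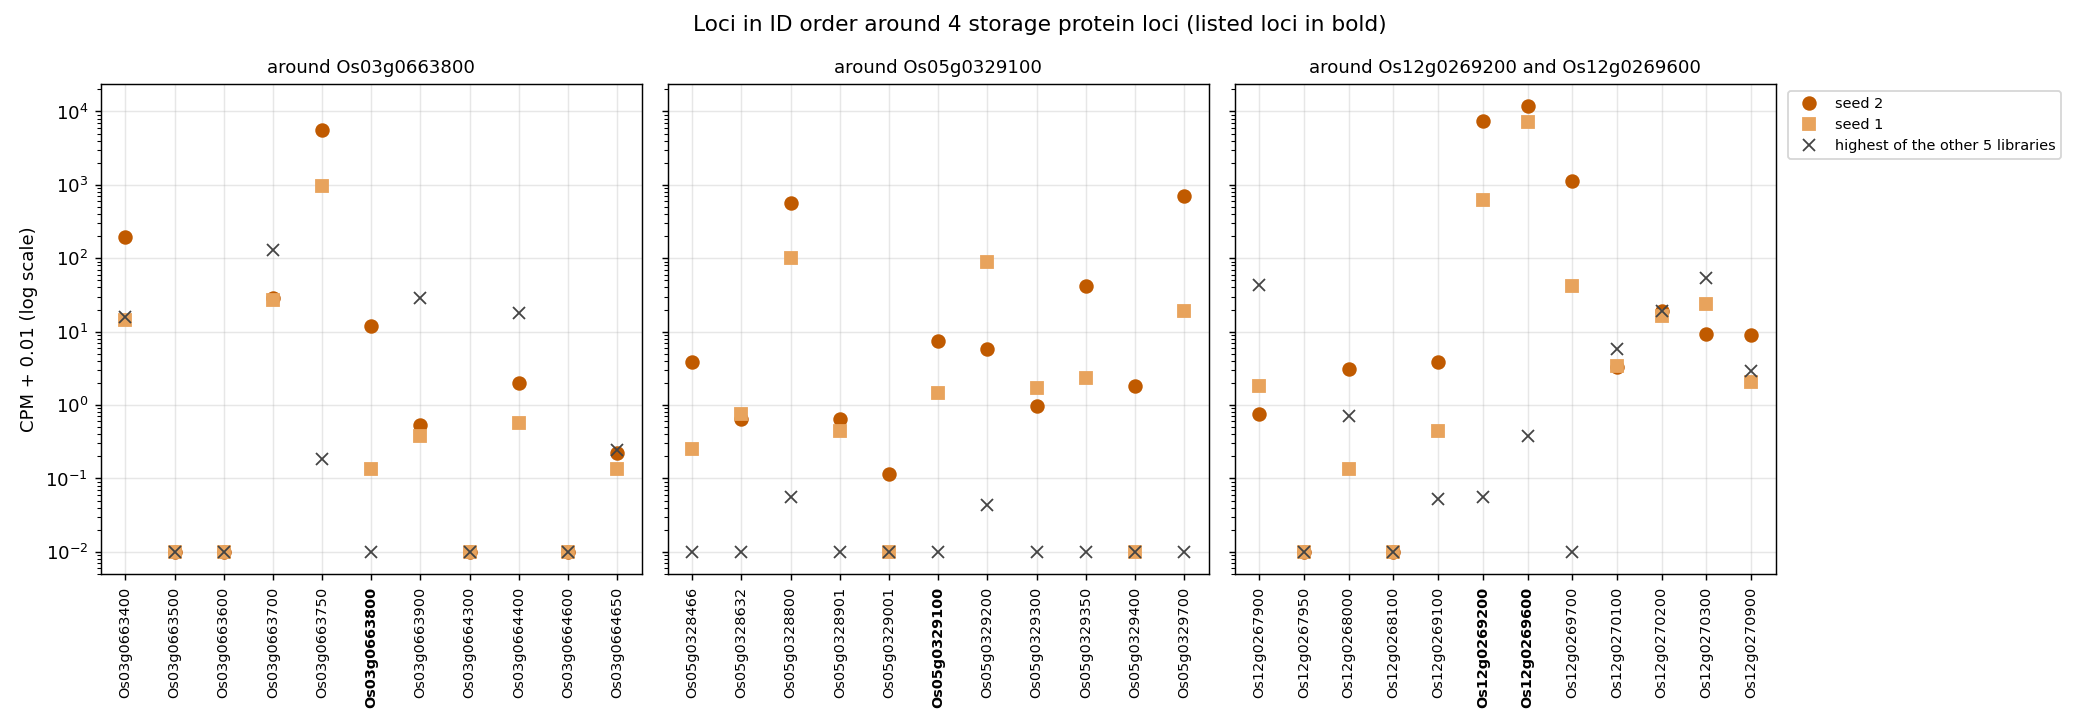
Loci in ID order around Os03g0663800, Os05g0329100 and the chromosome 12 pair, with CPM + 0.01 on a log axis. Circles are seed 2, squares seed 1 and crosses the highest of the other 5 libraries. All loci around Os05g0329100 have counts in 1 or both seed libraries and crosses near the bottom, and Os03g0663750 reaches 5608 CPM in seed 2 beside the listed locus at 12.0 CPM.

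By the likeness of their profiles over the 7 libraries (Pearson's r of log2(CPM + 0.5), given as a description because all loci share libraries and most of r is seed against the rest), the chromosome 7 neighbours were closest to each other. Os07g0206500 ranked 1 of 1926 loci for Os07g0206400, and the reverse also held, at r = 0.999. Whether reads of similar copies were shared between these loci was not tested. Os12g0269600 ranked 4 for Os07g0206500 and 10 for Os03g0766100. The alpha-globulin ranked 28 for Os12g0269600. Os03g0766100 ranked 9 for Os12g0269600, and Os12g0269600 ranked 18 for the alpha-globulin and 27 for Os07g0206400. Os07g0206500 ranked 27 for Os12g0269600. Some ranks were further off: for Os03g0766100, Os07g0206400 ranked 57 and Os12g0269200 ranked 70. The other members ranked 58 to 111 for Os12g0269200, 39 to 153 for Os05g0329100 and 83 to 264 for Os03g0663800. Many non-members were thus closer to these loci in profile than other members were. Among non-members, the loci most like the mean prolamin profile were Os02g0268100, Os02g0249000 and Os02g0456100. The first had 8468 CPM in seed 2 and 2420 CPM in seed 1, against 0.324 CPM or less elsewhere. The second had 9090 CPM in seed 2 and 2557 CPM in seed 1, against 0.0463 CPM or less elsewhere.

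Most like the alpha-globulin were Os07g0615500 and Os02g0202400, both at r = 0.9998 and both lower in seed 2, with 415 and 774 CPM in seed 2 against 515 and 970 CPM in seed 1. The vicilin-like locus had only 0.123 CPM in seed 1, so its r rests largely on 1 library, seed 2. Most like it were Os05g0247800 (r = 0.980, with 593 CPM in seed 2 and 2.82 CPM in seed 1) and Os05g0155500 (r = 0.970). The last had 148 CPM in seed 2 and 56.4 CPM in seed 1, against up to 69.2 CPM outside seed, so its groups overlapped. With Spearman's rho in place of r, 0 of these 7 loci were chosen again, and with a pseudocount of 5 CPM 5 of 7 were.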

How the data were processed

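The authors deposited 1 table per library with whole-number counts per exon bin, not normalized. Per the submitters' processing notes, HTSeq, TopHat2 2.0.4, Bowtie2, Cufflinks, SAMtools 1.2 and bcl2fastq 1.8.4 were used with build IRGSP-1.0, with no step named for each. Strand setting and filters: not given in the sources used here. Without strand, antisense or overlapping loci cannot be told apart. Each table holds 178317 bins, and 5 rows that name no gene (12.2% to 15.8% of counts) were left out.

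Bin counts were summed per locus. Loci kept by edgeR's filterByExpr (minimum count of 10 in 1 library) entered edgeR 4.0.16 (glmQLFit and glmQLFTest with TMM factors, R 4.3.3) in 1 model of 7 libraries and 4 tissue means, with Benjamini-Hochberg adjustment over 26784 loci, at adjusted p under 0.05 and 2-fold. Usage was tested with diffSpliceDGE. Where a tissue had no count, folds are bounds against 3 counts over its libraries. With 1 or more counts, ratios divide the mean seed CPM by the other tissue's summed counts over its summed scaled library sizes, and carry exact Poisson intervals (95%) of that tissue's counts, for counting error only. The ratio of seed 2 over seed 1 uses counts + 0.5, except where an interval is given. DESeq2 1.42.0 and limma 3.58.1 served as alternatives. The code was run on simulated data with the same spread at every locus, which checks the code and not the results at these loci.

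Named loci are the 8 members, the neighbours (5 on either side) called in all 3 seed comparisons, and the non-members most like the prolamin mean (3) and each globulin (2), among loci of 100 CPM or more in seed. The members and lists were chosen with earlier results of these data known. Lists of related genes were not run, since the reference annotates none of the 8 IDs. No sequences are shown.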

Additional observations from a re-analysis of the deposited data

How the results depend on the processing

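The member counts against leaf, root and panicle stayed within 1.5 times under every alternative run. With 1 library left out they were 5 to 8, 6 to 8 and 6 to 8, while the share of all tested loci called moved more: over leaf it was 2.88% without leaf 1 and 2.49% without leaf 2, against 11.2% with all libraries, over root 5.42% to 13.2%, and over panicle 8.56% to 19.3%. With the replicate number as a block the member counts were 8, 6 and 8. Of all tested loci 12.0%, 9.98% and 18.2% passed in that fit. It called Os03g0663800 against leaf and panicle (edgeR, adjusted p = 0.0112 and 0.0132). The labels do not say that the numbers pair libraries, and not every pair of tissues correlated above 0.1: replicate differences correlated across loci at r = 0.227 (seed and leaf), 0.048 (seed and panicle) and 0.145 (panicle and leaf). Among the other tissues the 0 calls became 2 (panicle over leaf) and 2 (root over leaf) with DESeq2, 1 and 2 with no low-count filter, and 0 to 2 and 0 to 1 with 1 library left out, the highest without seed 1 or seed 2. The cause was not tested. The replicate block left these at 0. Of the 6 loci 2-fold apart between seed libraries, 3 were 4-fold apart, and counts were 5 to 7 under other scalings and the largest bin. Neighbours higher in seed numbered 10 of 88 tested with 10 loci on either side, 8 under the replicate block, and 3 to 12 with 1 library left out. No usage call appeared. Precision is limited by 2 seed libraries, 1 root library and few counts outside seed.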
